A study of Mus musculus with 16 samples.

Results

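Mitosis and cytokinesis genes encode the machinery that condenses chromosomes, builds the spindle, times the separation of sister chromatids and divides the cell. The list holds 40 mouse genes chosen by symbol for these functions, and all 40 were found in both count tables, which share 24974 genes. By role they were the cyclin-dependent kinase with its cyclins and Cdc25 phosphatases (*Cdk1*, *Ccna2*, *Ccnb1*, *Ccnb2*, *Cdc25b* and *Cdc25c*), mitotic kinases and spindle checkpoint genes (*Plk1*, *Aurka*, *Bub1*, *Bub1b*, *Mad2l1* and *Ttk*), partners of the anaphase-promoting complex (*Cdc20* and *Ube2c*) and the chromosomal passenger complex (*Aurkb*, *Birc5*, *Incenp* and *Cdca8*). The others were kinesins (*Kif11*, *Kif15*, *Kif20a*, *Kif22*, *Kif23*, *Kif2c* and *Kif4*), centromere and kinetochore genes (*Cenpa*, *Cenpe* and *Cenpf*), condensin and mitotic chromosome genes (*Ncapg*, *Ncaph*, *Smc2*, *Smc4*, *Top2a* and *Mki67*), spindle and midzone genes (*Tpx2*, *Nusap1* and *Prc1*) and cytokinesis genes (*Anln*, *Ect2* and *Racgap1*). The study sequenced polyadenylated RNA of thymocytes, in strand-specific libraries, from mice with and without deletion of *Tox4*, which encodes a DNA-binding protein with a high-mobility-group box. Double-positive (DP) thymocytes, which carry CD4 and CD8, gave 3 control and 3 conditional knockout (cKO) samples, and sorted CD8 thymocytes with the T cell receptor beta chain gave 5 control and 5 cKO samples. Control mice were Tox4 f/f without Cre, and cKO mice were Tox4 f/f with Lck-Cre, a transgene under the proximal *Lck* promoter that deletes the floxed exons 4 to 6 from the stage called DN3 onward. All were littermates of matched sex aged 6 to 8 weeks on a C57BL/6 background, and the labels give no treatment. The comparisons address whether loss of *Tox4* altered the mRNA of cell division genes in either cell type.

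In dividing cells, cyclin-dependent kinase with cyclin A or cyclin B starts mitosis after Cdc25 phosphatases remove an inhibitory phosphate, and the spindle checkpoint holds the anaphase-promoting complex back until every chromosome is attached. Transcription of most of these genes peaks in late S phase, G2 and mitosis, through promoter elements called the cell cycle homology region (CHR) and the CCAAT box, and is low in resting cells. In the thymus, cells divide fast as they pass from the double-negative to the DP stage, after which most DP and mature single-positive cells are resting.

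Counts on genes totalled 14583336 to 25981683 in DP samples and 8514135 to 13530783 in CD8 samples. Levels that compare genes are given as TPM, in which the counts of each gene are divided by its exonic length and scaled to the same sum in each sample. Levels of single members and *Tox4* by sample are given in the text as normalized CPM. These are counts scaled to library size after TMM normalization (trimmed mean of M-values) within each cell type, not divided by length. Summed levels, markers, means per group and plots of levels are in TPM without TMM normalization, also where samples or cell types are compared. Values of samples are listed in the order of their replicate numbers throughout. The targeted gene, *Tox4*, had 154, 172 and 180.3 normalized CPM in the DP control samples and 133, 141 and 131 in the DP cKO samples. The DP groups did not overlap. The log2 fold change was -0.32 (SE, its standard error, 0.11) with an adjusted p of 0.381 by edgeR's quasi-likelihood test, and a 2-sided exact permutation test gave p = 0.1, the smallest that 3 samples against 3 allow. Reads on exons outside the deleted part also enter this count. In CD8 cells *Tox4* had 197, 188, 200.1, 201 and 178 normalized CPM in control samples and 169, 185, 176, 234 and 164 in cKO samples. The groups overlapped, and the library labelled CD8 cKO replicate 4 was above every control sample, so *Tox4* goes against its label. For the CD8 groups the log2 fold change was -0.056 (standard error 0.098, edgeR adjusted p = 0.979, exact permutation p = 0.532). Other genes in the library labelled CD8 cKO replicate 4 went both ways. Its *Sox13* and *Notch1* levels were above every CD8 control sample, as in the other CD8 cKO samples. Its summed markers of DP cells, given below, were also above every CD8 control sample, where those of the other CD8 cKO samples were below. Whether its label is right was not tested. CD8 control replicate 1 also stood apart, where 17741 genes had a count while each of the other CD8 controls had 13708 to 14194 such genes. CD8 cKO replicate 1 had 15054, the next highest of the CD8 samples. The summed level of the 40 members was 1198, 1878, 1533, 1552 and 1773 TPM in the CD8 control samples and 1656, 1863, 1601, 1978 and 1993 TPM in the CD8 cKO samples. CD8 control replicate 1 had the lowest sum of the 10 samples, and the other 9 lay closer together. The CD8 counts and medians of the members, and the CD8 log2 fold changes of genes given sample by sample, are given with and without this library and the library labelled CD8 cKO replicate 4, which were chosen from an earlier look at these data. Without both, the CD8 log2 fold change of *Tox4* was -0.14, and it was -0.15 (without the library labelled CD8 cKO replicate 4) to -0.014 (without cKO replicate 5) with single libraries left out. Leaving out the control with the lowest sum raises the control mean of that sum, so fits without it show how far a value rests on it and do not test the change.

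The cell type labels were checked against marker lists. In DP control samples *Cd4* had 1675 ± 197 TPM (SD, n = 3) and *Rag1*, a recombinase gene of DP cells, 3606 ± 605 TPM. In CD8 control samples the same genes had 30.7 ± 32.9 and 25.5 ± 24.8 TPM (SD, n = 5), while *Cd8a* had 1578 ± 94.9 TPM. *Cd8a* was not particular to CD8 samples, with 1975 ± 317 TPM in DP control samples (n = 3). *Cd8b1* was also higher there, at 2960 ± 242 TPM against 1787 ± 90.8 TPM in CD8 control samples. The 8 markers of mature single-positive cells, all in the tables, summed to 4379, 3864, 5995, 6140.4 and 5199 TPM in CD8 control samples and to 1342, 1083 and 1069 TPM in DP control samples. Of these, *Ccr9* went the other way, with a mean of 845 TPM in DP control and 454 TPM in CD8 control samples, and made up most of the DP sum. Apart from *Ccr9*, both labels therefore matched their markers, and none of the 7 DP markers or 8 mature markers was at 0 in a group. Because the cell types came in separate count tables and library series, a difference between cell types cannot be told apart from a difference between those series.

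The promoters of many members share elements that the choice by function did not use. RefSeq promoters (GRCm38.p6), 250 bases before to 50 bases after the annotated start, were available for 33 of the 40 members and not for *Ccna2*, *Cdc25c*, *Aurkb*, *Incenp*, *Kif20a*, *Smc4* and *Tpx2*. The letters of the CHR, TTTGAA or TTCGAA on either strand, occurred in 27 of the 33 (81.8%) and in 6316 of all 32851 promoters of that length (19.2%). CCAAT on either strand occurred in 26 of the 33 (78.8%) and in 12289 of all promoters (37.4%), and both kinds of match in 24 members (72.7%) and 2472 promoters (7.52%). Of the others, *Ccnb1* and *Cenpe* had CCAAT but neither CHR spelling, *Anln*, *Kif15* and *Kif2c* had a CHR match but not CCAAT, and *Birc5*, *Mad2l1*, *Ncaph* and *Nusap1* had none of these letters in the window, which says nothing of the sequence beyond it. Every CHR match within the promoters of *Cdk1*, *Ccnb2*, *Plk1* and *Cdc20* is printed in 30 bases, since these genes stand for entry into mitosis, its main kinase and exit from it, and capitals mark the CHR letters.
Cdk1 chr10:69352966-69352995 (-): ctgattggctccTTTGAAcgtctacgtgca
Cdk1 chr10:69352910-69352939 (-): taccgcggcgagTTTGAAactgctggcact
Ccnb2 chr9:70421704-70421733 (-): cagggactagaaTTTGAAaataagactgta
Ccnb2 chr9:70421533-70421562 (-): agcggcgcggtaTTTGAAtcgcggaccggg
Plk1 chr7:122159453-122159482 (+): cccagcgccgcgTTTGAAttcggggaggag
Cdc20 chr4:118437344-118437373 (-): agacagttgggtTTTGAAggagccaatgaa
The *Cdc20* stretch also holds ccaat to the right of its CHR letters, and the first *Cdk1* stretch holds attgg, which is CCAAT on the other strand. These matches describe sequence only, and no measurement of binding was used.

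In DP control samples the members summed to 3379, 3779.6 and 2345 TPM, and in DP cKO samples to 5192, 3386 and 3621 TPM. Control replicate 3 was the lowest and cKO replicate 1 the highest of the 6, and the groups overlapped. The member with the highest mean was *Top2a*, which encodes the topoisomerase that untangles sister chromatids, at 305 ± 77.6 TPM in DP control samples (SD, n = 3), followed by *Smc4*, a condensin subunit, at 284 ± 80.3 TPM. These means differed by less than their SD. At the other end stood *Ttk*, a spindle checkpoint kinase gene, at 10.8 ± 2.62 TPM and *Cenpf*, which encodes a large kinetochore protein, at 11.4 ± 6.54 TPM, again closer than their SD. In CD8 control samples *Smc4* was highest at 343 ± 55.2 TPM (SD, n = 5) and *Mki67*, the gene of the Ki-67 protein that coats mitotic chromosomes, next at 132 ± 32.05 TPM. The lowest there were *Cdc25c*, a phosphatase gene of mitotic entry, at 4.29 ± 2.42 TPM and *Cdk1*, the mitotic kinase itself, at 6.93 ± 2.63 TPM. Raw counts of *Cdc25c* were 8 to 67 in CD8 control samples, so differences in this gene were read on few fragments. By role, condensin and chromosome genes gave the largest sum in DP control samples (847 ± 216 TPM over 6 genes) and centromere genes the smallest (122 ± 24.2 TPM over 3 genes). The plot of TPM by sample shows 12 of the members in all 4 groups.

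**Figure D1:**
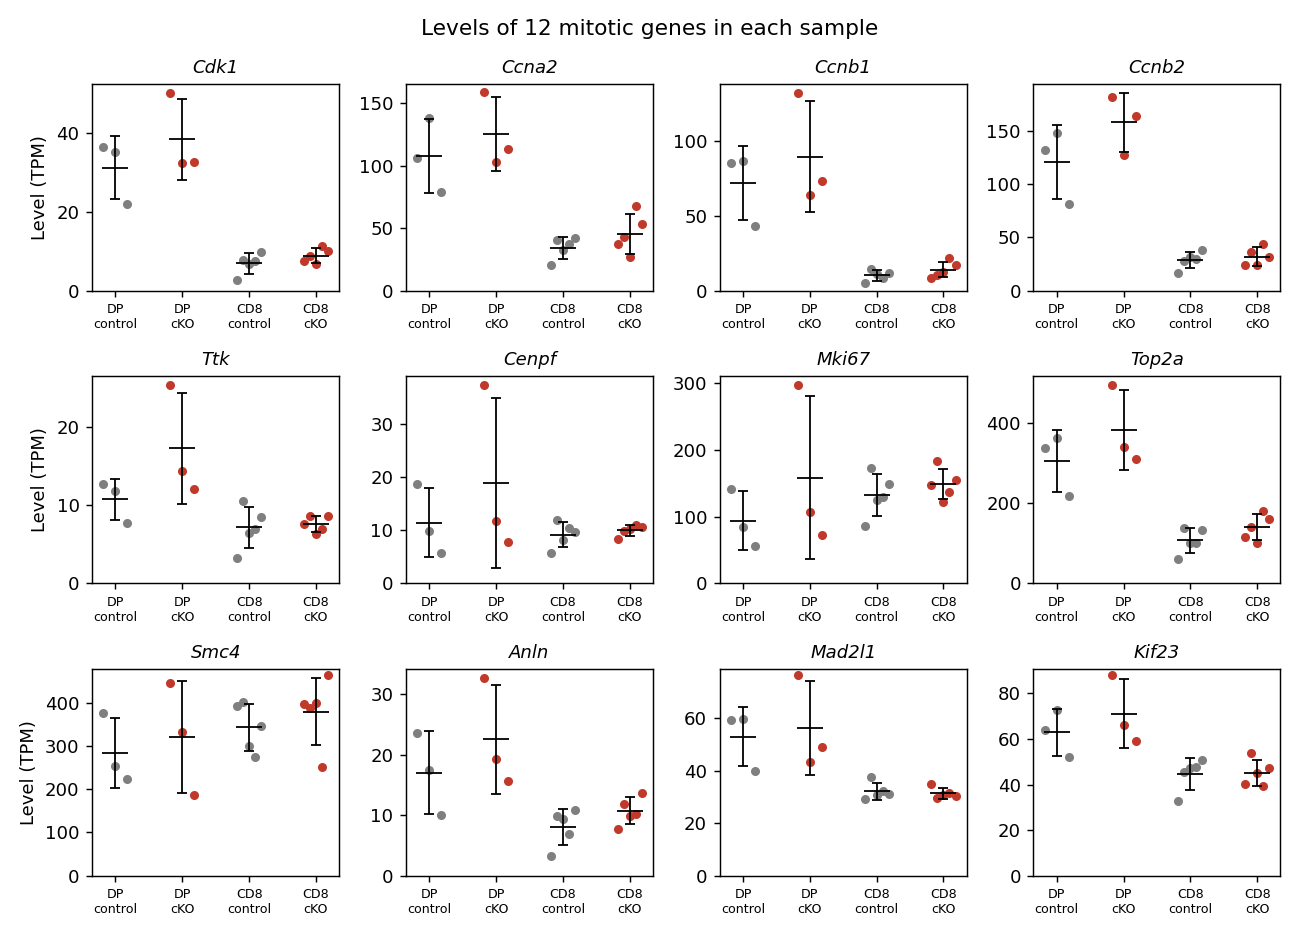
TPM of 12 members in each DP and CD8 sample, control and cKO, with the mean and SD of each group as bars. *Top2a* averaged 305 TPM in DP control samples and *Cdk1* 6.93 TPM in CD8 control samples.

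CD8 and DP control samples were compared first, to give the size of the difference between cell types beside that between genotypes. A gene was called different when edgeR's quasi-likelihood test gave a Benjamini-Hochberg adjusted p under 0.05 over all genes tested, the fold change was at least 1.5 and the mean TPM at least 1. All 40 members passed the filter on low counts in every comparison. Of the 40, 32 were called lower in CD8 than in DP control samples and 0 higher by edgeR, where 22.3% of 11758 genes tested were called lower and 22% higher. At an unadjusted p under 0.05, 0 members were higher, against 31.7% of all genes. DESeq2 also called 32 lower and 0 higher, against 22.4% called higher and 22.1% lower over all genes. The median log2 fold change of the members was -1.39, against -0.011 over all genes tested. In bulk samples fewer dividing cells and less RNA per cell cannot be told apart. The largest difference was in *Ccnb1*, the cyclin B1 gene, whose log2 fold change was -2.88 (standard error 0.28, edgeR adjusted p = 3.86e-06). In CPM normalized over all 16 samples, every CD8 control sample was below every DP control sample for 32 members, as for 29.9% of all genes, and *Kif15* joined these 32 when CPM was normalized within each cell type (33 members). Without CD8 control replicate 1, 31 members were called lower and the median was -1.24. The count was 29 without DP control replicate 2 and 37 without DP control replicate 3, and without DP control replicate 1 *Mki67* was called higher in CD8 cells.

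The 8 members not called included both large condensin subunits and the Ki-67 gene. *Smc2* had a log2 fold change of -0.50 (edgeR adjusted p = 0.0315), past the p threshold and short of the 1.5-fold limit, and *Smc4* 0.21 (adjusted p = 0.287). *Mki67* stood at 132 ± 32.05 TPM in CD8 control samples (SD, n = 5) and 93.7 ± 44.1 TPM in DP control samples (n = 3), with a log2 fold change of 0.44 (edgeR adjusted p = 0.155). Its groups overlapped. When single libraries were left out, *Mki67* ran from 0.19 (without DP control replicate 3) to 0.81 (without DP control replicate 1), *Smc4* from 0.083 to 0.41 and *Smc2* from -0.70 to -0.33, over the same 2 libraries. The others were *Racgap1*, whose protein is part of the midzone complex that triggers cytokinesis, at -0.33, *Cenpe*, a kinetochore motor, at -0.44, *Cenpf* at -0.37, *Kif23*, the motor partner of *Racgap1*, at -0.57 and *Ttk* at -0.66, all log2 fold changes. With single libraries left out these ran from -0.46 to -0.11 for *Racgap1*, -0.72 to -0.013 for *Cenpe*, -0.67 to 0.11 for *Cenpf*, -0.67 to -0.42 for *Kif23* and -0.83 to -0.48 for *Ttk*, all lowest without DP control replicate 3, when *Smc2*, *Cenpe*, *Cenpf*, *Kif23* and *Ttk* were called lower. *Kif23* had an edgeR adjusted p of 0.00686 and missed only the 1.5-fold limit, and its CD8 samples were all below the DP samples. By role the median log2 fold changes ran from -2.20 for the partners of the anaphase-promoting complex and -1.92 for the kinase, cyclins and Cdc25 genes to -0.44 for centromere and kinetochore genes. Among cKO samples, which share no library with the control comparison, 37 members were called lower in CD8 cells and 0 higher by edgeR, where 26% of 11740 genes were called lower and 22.6% higher. Here too 0 members were higher at an unadjusted p under 0.05, against 31.3% of all genes, and DESeq2 called 35 lower and 0 higher, against 24.3% higher and 24.4% lower over all genes. In this comparison the median log2 fold change was -1.56 (all genes -0.061), and 34 members had groups that did not overlap under either normalization (below in 31.6% of all genes). Not called were *Smc2* (-0.47), *Smc4* (0.063) and *Mki67* (-0.25), which ran from -0.68 to 0.00035, -0.17 to 0.37 and -0.56 to 0.57 over fits without DP cKO replicate 3 (lowest) and without DP cKO replicate 1 (highest). Without the library labelled CD8 cKO replicate 4, 37 members were called lower with a median of -1.67. Without DP cKO replicate 1 the count was 34, and *Cenpf* (log2 fold change -0.14), *Cenpe* (-0.25) and *Racgap1* were no longer called. The plot of CD8 against DP means shows the control samples.

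**Figure D2:**
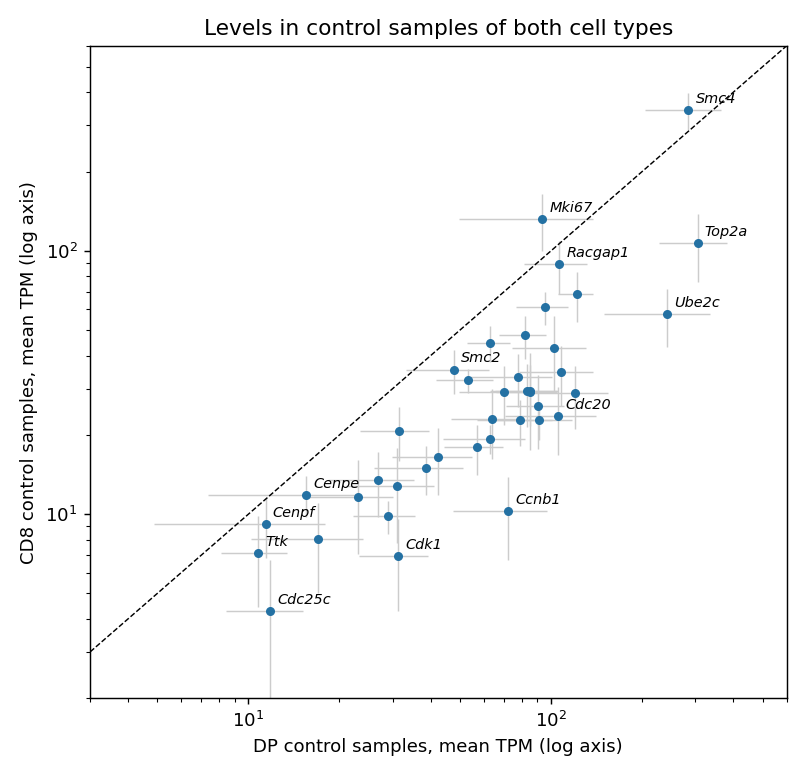
Mean TPM of the 40 members in CD8 control samples (n = 5) against DP control samples (n = 3) on log axes, with SD bars and a dashed line of equality. Most members lay below the line, *Ccnb1* farthest by log2 fold change (-2.88), and *Smc4* and *Mki67* above it.

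The comparison of cKO with control DP samples asked whether loss of *Tox4* altered the members in DP cells. 0 of the 40 members were called by edgeR, where 0.0851% of 11748 genes tested were called higher and 0.0596% lower. At an unadjusted p under 0.05, 8 members were higher and 0 lower, against 5.07% higher and 4.11% lower over all genes. These were *Cdc25c*, *Bub1b*, *Ttk*, *Aurkb*, *Incenp*, *Cdca8*, *Kif15* and *Racgap1*. DESeq2 called 0 members (over all genes, 0.783% higher and 0.579% lower) and placed 11 higher and 0 lower at an unadjusted p under 0.05 (over all genes, 4.95% higher and 4.32% lower). The log2 fold change was above 0 for 40 of 40 members, with a median of 0.39 (1.31-fold) against -0.0011 over all genes, and ran from 0.093 for *Smc2* to 0.78 for *Mki67*. Over all genes 49.8% were above 0. The members are not independent of each other, and their shared direction is not a replicate of the comparison. The smallest adjusted p was 0.457, for *Ttk*. *Ttk* and *Cdc25c* had every cKO sample above every control sample, 2 of 40 members, against 7.87% of all genes, and 0 had every cKO sample below (7.27% of all genes).

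The DP median depended on single libraries. It was 0.17 without cKO replicate 1, when 33 members were above 0, and 0.21 without control replicate 3, when 38 were above 0. It was 0.61 without control replicate 2, and between 0.40 and 0.53 without each of the other 3, with 40 members above 0 in these 4 fits. The 7 members below 0 without cKO replicate 1 were *Mad2l1*, *Cenpe*, *Cenpf*, *Smc2*, *Smc4*, *Nusap1* and *Ect2*, and *Mad2l1* and *Smc2* were below 0 without control replicate 3. No member was called in any of these 6 fits by edgeR. The 27 members not given sample by sample below ran from 0.093 to 0.70 with all libraries, from -0.35 (*Smc2*) to 0.55 (*Cdca8*) without cKO replicate 1 and from -0.12 (*Smc2*) to 0.42 (*Cdca8*) without control replicate 3, and their single values below rest on all libraries. When same-numbered samples formed blocks in the fit, edgeR called 0 members (called over all genes, 0.63% higher and 0.485% lower) and placed 21 higher at an unadjusted p under 0.05 (8.31% of all genes), and its smallest adjusted p was 0.0716, for *Mki67*. DESeq2 with the same replicate block called *Mki67* (log2 fold change 0.63, DESeq2 adjusted p = 0.0019) and *Cenpf* (0.60, adjusted p = 0.0177) higher, 2 of 40 members against 1.03% of all genes. *Kif15* (0.54, DESeq2 adjusted p = 0.0166) and *Cenpe* (0.55, adjusted p = 0.0453) passed the adjusted p in that fit (1.38% of all genes, higher) but not the 1.5-fold limit, and were named after their values were seen. Neither DESeq2 fit was repeated without single libraries. The plot of log2 fold changes gives each member's estimate with its interval in both cell types.

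**Figure D3:**
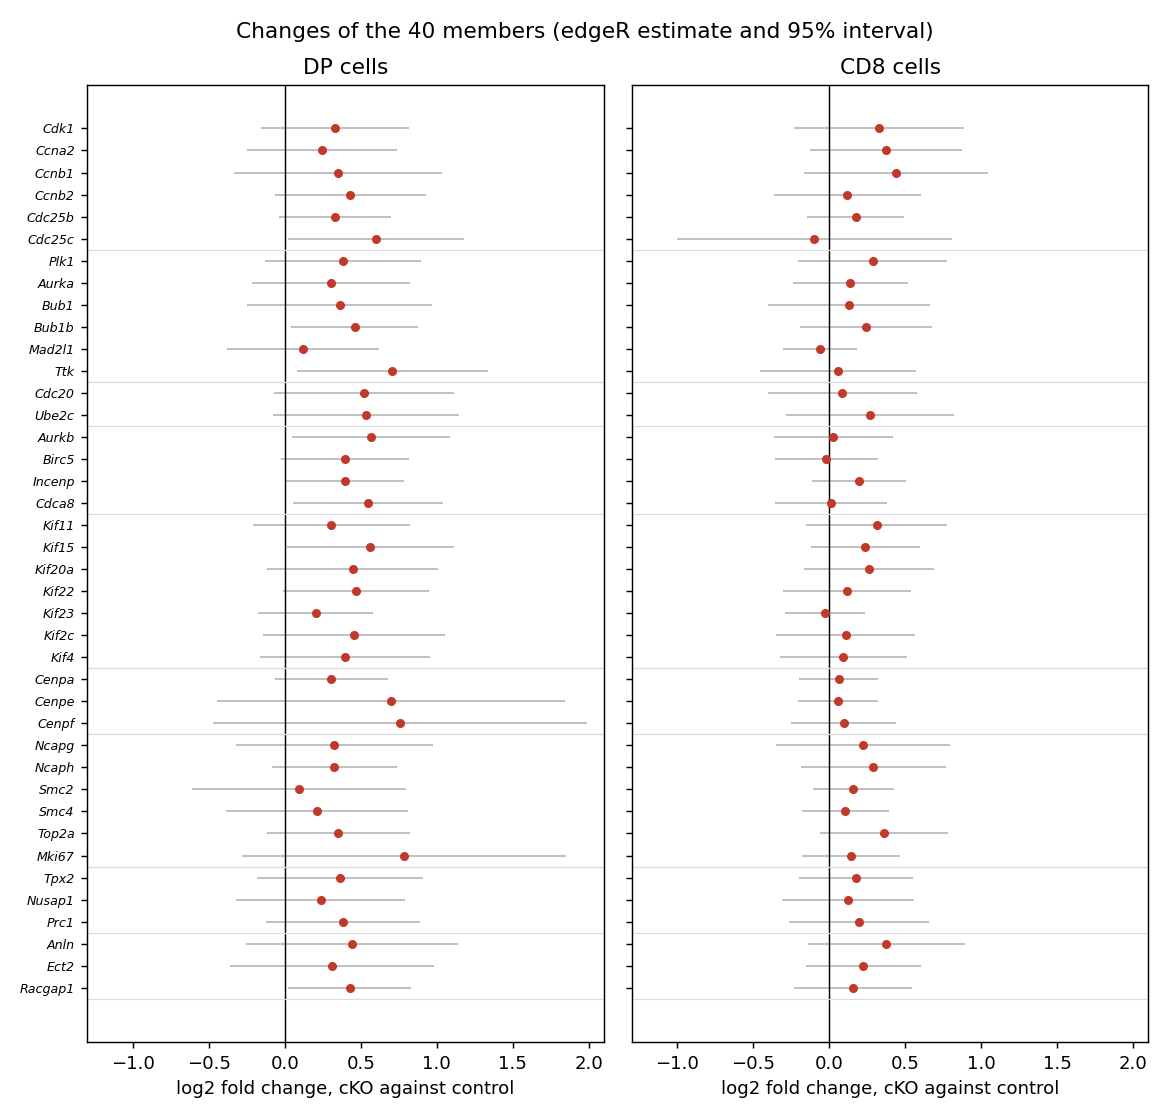
Log2 fold change, cKO against control, of the 40 members in DP cells (3 against 3 samples) and CD8 cells (5 against 5) from edgeR, with 95% intervals as bars. All 40 estimates in DP cells were above 0 (median 0.39) and 36 in CD8 cells (median 0.15), and 0 members were called in either.

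In CD8 cells the same comparison asked whether the members differed after the DP stage. 0 of 40 members were called by edgeR, where 0.0891% of 11227 genes tested were called higher and 0.00891% lower. At an unadjusted p under 0.05 there were 0 members, against 3.06% higher and 2.54% lower over all genes. DESeq2 also called 0 members (0.365% higher and 0.107% lower over all genes) and placed 0 at an unadjusted p under 0.05 (3.24% higher and 2.63% lower over all genes). The smallest adjusted p was 0.954, for *Top2a* (unadjusted p = 0.0864). The log2 fold change was above 0 for 36 of 40 members (48.4% of all genes), the exceptions being *Cdc25c*, *Mad2l1*, *Kif23* and *Birc5*, with a median of 0.15 against -0.0060 over all genes and a range from -0.099 to 0.44. No member had groups that did not overlap, against 0.855% of all genes above and 0.641% below. Without CD8 control replicate 1 the median was 0.043 with 27 members above 0, and without the library labelled CD8 cKO replicate 4 it was 0.055 with 25 above 0. Without both it was -0.049 with 17 above 0, and edgeR called 0 members and placed 1 higher at an unadjusted p under 0.05 (4.4% of all genes). The median was 0.23 without control replicate 2, the highest when single CD8 libraries were left out, and no member was called in any of the 10 fits. At least 1 of these 10 fits changed the sign of 18 of the 40 members, 13 of them among the 27 not given sample by sample, whose single CD8 values below rest on all libraries. The 27 members not given sample by sample ran from -0.020 (*Birc5*) to 0.31 (*Kif11*) with all CD8 libraries, 26 of them above 0, and from -0.23 (*Cdc20*) to 0.097 (*Cenpe*) without both, with 10 above 0. With same-numbered CD8 samples as blocks edgeR called 0 members, and its smallest adjusted p was 0.368. That fit placed some members higher at an unadjusted p under 0.05, and their number is given with the dependence on processing.

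Whether the change differed between cell types was tested directly, as the change in CD8 cells minus the change in DP cells, called at an adjusted p under 0.05 alone. 0 members were called by edgeR, where 0.107% of 12131 genes tested were called higher and 0% lower. By edgeR 0 members were at an unadjusted p under 0.05, against 3.48% higher and 1.79% lower over all genes. By DESeq2 0 members were called (0.231% higher and 0.0742% lower over all genes) and 0 were at an unadjusted p under 0.05 (4.23% higher and 1.77% lower over all genes). The members' median difference was -0.22 on the log2 scale (all genes -0.012), with 5 of 40 above 0 (48.2% of all genes). With same-numbered samples as blocks edgeR called 0 members and placed 3 lower at an unadjusted p under 0.05, *Cenpe*, *Cenpf* and *Mki67* (3.5% of all genes). By role the median in the fit without blocks ran from -0.64 for centromere and kinetochore genes to -0.071 for condensin and chromosome genes, which were 0.21 and 0.19 without DP cKO replicate 1, -0.36 and 0.11 without DP control replicate 3, and -0.60 and -0.27 without the 2 CD8 libraries. The median was -0.0034 without DP cKO replicate 1, -0.080 without DP control replicate 3, -0.42 without DP control replicate 2 and -0.35 without DP cKO replicate 2. It was -0.45 without CD8 control replicate 1 and the library labelled CD8 cKO replicate 4 together, when edgeR placed 9 members lower at an unadjusted p under 0.05 (2.9% of all genes) and called 0.

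Among the genes of mitotic entry, *Cdk1*, the catalytic subunit, had 52.7, 55.4 and 34.3 normalized CPM in DP control samples and 75.1, 50.2 and 53.7 in DP cKO samples. Control replicate 3 was low and cKO replicate 1 high, the other 4 samples were close, and the groups overlapped. In DP cells the log2 fold change was 0.33 (SE 0.21, edgeR adjusted p = 0.71, exact permutation p = 0.5), and 0.13 (without cKO replicate 1) to 0.46 (without control replicate 2) when single libraries were left out. In CD8 samples *Cdk1* had 3.70, 10.001, 9.12, 10.4 and 13.3 normalized CPM in control and 10.3, 11.6, 8.88, 15.98 and 12.1 in cKO samples. Control replicate 1 was lowest, the library labelled CD8 cKO replicate 4 was highest, and the groups overlapped. In CD8 cells the log2 fold change was 0.33 (SE 0.26, edgeR adjusted p = 0.979, exact permutation p = 0.27), and 0.13 (without control replicate 1) to 0.50 (without control replicate 5) with single libraries left out. *Ccna2*, the cyclin A2 gene active from S phase to early mitosis, had 119, 168 and 95.7 normalized CPM in DP control and 184, 124 and 145 in DP cKO samples, which overlapped, with control replicate 3 lowest and cKO replicate 1 highest. Its CD8 values were 21.8, 41.3, 33.5, 39.8 and 43.9 in control and 38.9, 43.8, 27.2, 74.6 and 49.9 in cKO samples, again with control replicate 1 lowest and the library labelled CD8 cKO replicate 4 highest. Log2 fold changes of *Ccna2* were 0.24 in DP cells (edgeR adjusted p = 0.816) and 0.37 in CD8 cells (adjusted p = 0.979). They ranged over 0.069 (without control replicate 3) to 0.49 (without control replicate 2) in DP cells and 0.15 (without the library labelled CD8 cKO replicate 4) to 0.52 (without cKO replicate 3) in CD8 cells when single libraries were left out. Without the 2 CD8 libraries that stood apart, the CD8 log2 fold changes were 0.00075 for *Cdk1* and 0.013 for *Ccna2*.

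The B-type cyclins complete the mitotic kinase. *Ccnb1* had 65.7, 72.6 and 36.2 normalized CPM in DP control and 105, 52.7 and 64.2 in DP cKO samples. Only cKO replicate 1 lay above all control samples. In CD8 cells *Ccnb1* had 3.70, 10.001, 7.92, 6.43 and 8.45 normalized CPM in control and 6.38, 7.56, 8.55, 16.3 and 11.2 in cKO samples. Control replicate 1 was the lowest, and the library labelled CD8 cKO replicate 4 and cKO replicate 5 lay above every control sample. Its CD8 log2 fold change of 0.44 was the largest of the 40 there (SE 0.28, edgeR adjusted p = 0.979, exact permutation p = 0.246), and its DP log2 fold change was 0.35 (SE 0.30, edgeR adjusted p = 0.804, exact permutation p = 0.6). Leaving out single libraries gave 0.0085 (without cKO replicate 1) to 0.54 (without control replicate 2) in DP cells and 0.19 (without the library labelled CD8 cKO replicate 4) to 0.58 (without control replicate 2) in CD8 cells. Without the 2 libraries that stood apart, the CD8 log2 fold change of *Ccnb1* was 0.029. *Ccnb2*, the cyclin B2 gene whose 2 CHR matches are printed above, had 67.3, 82.04 and 45.01 normalized CPM in DP control and 96.3, 69.6 and 95.6 in DP cKO samples. Here cKO replicates 1 and 3 were above every control sample and cKO replicate 2 was not. In CD8 cells it had 8.05, 13.03, 14.7, 14.7 and 18.1 normalized CPM in control and 11.3, 16.999, 11.02, 21.997 and 13.6 in cKO samples, which overlapped across most of their range. The log2 fold changes of *Ccnb2* were 0.43 in DP cells (SE 0.22, edgeR adjusted p = 0.622, exact permutation p = 0.2) and 0.12 in CD8 cells (SE 0.23, edgeR adjusted p = 0.98, exact permutation p = 0.675), the latter -0.19 without CD8 control replicate 1 and the library labelled CD8 cKO replicate 4 together. With single libraries left out the values of *Ccnb2* were 0.22 (without control replicate 3) to 0.64 (without control replicate 2) in DP cells and -0.058 (without the library labelled CD8 cKO replicate 4) to 0.24 (without control replicate 5) in CD8 cells.

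The Cdc25 phosphatases release the kinase from inhibition. *Cdc25c* had 9.62, 8.56 and 5.72 normalized CPM in DP control and 15.6, 9.77 and 10.8 in DP cKO samples. All cKO samples were above the control samples, cKO replicate 2 by little, and cKO replicate 1 was highest. For DP cells its log2 fold change was 0.60 (SE 0.26, edgeR adjusted p = 0.519, exact permutation p = 0.1), and 0.37 (without cKO replicate 1) to 0.76 (without control replicate 1) when single libraries were left out. In CD8 cells *Cdc25c* had 0.870, 2.29, 2.61, 2.20 and 4.88 normalized CPM in control and 1.19, 2.38, 2.14, 4.52 and 2.07 in cKO samples. Control replicate 5 and the library labelled CD8 cKO replicate 4 were high and the groups overlapped. The CD8 log2 fold change was -0.099 (SE 0.42, edgeR adjusted p = 0.998, exact permutation p = 0.929), the lowest of the 40, and -0.43 (without the library labelled CD8 cKO replicate 4) to 0.28 (without control replicate 5) when single libraries were left out. It was -0.64 without control replicate 1 and the library labelled CD8 cKO replicate 4. *Cdc25b*, expressed above *Cdc25c* in TPM in every group, had log2 fold changes of 0.33 in DP cells and 0.18 in CD8 cells. Over the 6 genes of this role the median was 0.34 in DP cells, 0.21 without DP cKO replicate 1 and 0.18 without DP control replicate 3, and in CD8 cells 0.25, or -0.016 without both CD8 libraries that stood apart.

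Among mitotic kinases and checkpoint genes, *Ttk* encodes the kinase that recruits the checkpoint to unattached kinetochores. It had 13.1, 13.3 and 8.67 normalized CPM in DP control and 27.2, 15.9 and 14.2 in DP cKO samples. All cKO samples were above the control samples, cKO replicate 1 by the widest margin. Its DP log2 fold change was 0.71 (SE 0.28, edgeR adjusted p = 0.457, exact permutation p = 0.1), and 0.36 (without cKO replicate 1) to 0.89 (without cKO replicate 3) when single libraries were left out. Its log2 ratios in the same-numbered pairs were 1.05, 0.26 and 0.71. In CD8 cells *Ttk* had 3.26, 9.82, 6.11, 6.88 and 8.16 normalized CPM in control and 7.32, 8.07, 5.96, 6.95 and 7.47 in cKO samples. The cKO samples lay within the range of the control samples, of which replicate 1 was lowest. The CD8 log2 fold change was 0.058 (SE 0.24, edgeR adjusted p = 0.998, exact permutation p = 0.738), and -0.12 without both CD8 samples numbered 1, an alternative chosen after seeing the data. It ranged over -0.11 (without control replicate 1) to 0.22 (without control replicate 2) with single libraries left out, and was -0.10 without the 2 CD8 libraries that stood apart.

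*Mad2l1* encodes the checkpoint protein that holds Cdc20 inactive. In DP cells it had 40.9, 45.03 and 29.97 normalized CPM in control and 54.9, 32.1 and 38.6 in cKO samples, which overlapped. CD8 values were 19.4, 23.5, 19.5, 21.5 and 20.1 in control and 22.6, 18.9, 19.2, 21.3 and 17.6 in cKO samples. These lay close together and overlapped, and this gene had the smallest spread among CD8 samples of the 40. The log2 fold changes were 0.12 in DP cells (SE 0.22, edgeR adjusted p = 0.927, exact permutation p = 0.8) and -0.061 in CD8 cells (SE 0.11, edgeR adjusted p = 0.98, exact permutation p = 0.46). Single libraries left out gave *Mad2l1* -0.13 (without cKO replicate 1) to 0.27 (without cKO replicate 2) in DP cells and -0.11 (without cKO replicate 1) to -0.011 (without control replicate 2) in CD8 cells, and leaving out both CD8 libraries that stood apart gave -0.11. The other 4, *Plk1* and *Aurka* (kinases of centrosome maturation and spindle assembly) and *Bub1* and *Bub1b* (checkpoint kinase and its relative BubR1), had DP log2 fold changes from 0.30 (*Aurka*) to 0.46 (*Bub1b*) and CD8 log2 fold changes from 0.13 (*Bub1*) to 0.29 (*Plk1*). The checkpoint's target, the anaphase-promoting complex, acts through *Cdc20*, its activator, and *Ube2c*, its ubiquitin-conjugating enzyme, which had DP log2 fold changes of 0.52 and 0.54 and CD8 values of 0.086 and 0.27. The log2 ratios of *Ube2c* in the DP pairs were 0.97, -0.40 and 1.18, below 0 in pair 2 and the highest member in pair 3.

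The chromosomal passenger complex corrects wrong attachments and guides the cleavage furrow. Its kinase gene *Aurkb* had a DP log2 fold change of 0.57, the borealin gene *Cdca8* 0.55, the scaffold gene *Incenp* 0.40 and the survivin gene *Birc5* 0.39. The first 3 were among the 8 members at an unadjusted p under 0.05 (edgeR adjusted p = 0.474, 0.467 and 0.526), and all 4 had DP groups that overlapped. In CD8 cells the same genes had log2 fold changes of 0.027, 0.011, 0.20 and -0.020. The difference between cell types had a role median of -0.48 (-0.39 without DP cKO replicate 1, -0.33 without DP control replicate 3 and -0.61 without the 2 CD8 libraries), with 0 of the 4 called by edgeR or DESeq2 and 0 at an unadjusted p under 0.05 by either. Of the kinesins, *Kif23* encodes the midzone motor needed for cytokinesis. It had 72.5, 89.8 and 63.9 normalized CPM in DP control and 104, 80.4 and 76.5 in DP cKO samples, which overlapped. In CD8 cells the values were 35.6, 46.7, 48.9, 52.05 and 53.8 in control and 42.6, 55.8, 46.3, 43.5 and 44.7 in cKO samples. Among CD8 cKO samples replicate 2 stood above the other 4, and control replicate 1 was the lowest sample. Log2 fold changes were 0.20 in DP cells (SE 0.17, edgeR adjusted p = 0.789, exact permutation p = 0.4) and -0.025 in CD8 cells (SE 0.12, edgeR adjusted p = 0.998, exact permutation p = 0.889). For *Kif23* they were 0.056 (without cKO replicate 1) to 0.35 (without control replicate 2) in DP cells and -0.11 (without control replicate 1) to 0.025 (without control replicate 5) in CD8 cells with single libraries left out, and -0.086 in CD8 cells without the 2 that stood apart. The other 6 kinesins, which slide microtubules apart (*Kif11* and *Kif15*), act at the midzone and on chromosomes (*Kif20a*, *Kif22* and *Kif4*) or depolymerize microtubules (*Kif2c*), had DP log2 fold changes from 0.31 (*Kif11*) to 0.56 (*Kif15*) and CD8 log2 fold changes from 0.093 (*Kif4*) to 0.31 (*Kif11*).

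*Cenpf* had the second largest DP log2 fold change of the members. It had 68.4, 39.7 and 22.9 normalized CPM in DP control and 142, 46.3 and 32.9 in DP cKO samples. Control replicate 1 was above cKO replicates 2 and 3, cKO replicate 1 was the highest sample, and the groups overlapped. The fitted log2 fold change was 0.76 (SE 0.54, edgeR adjusted p = 0.748, exact permutation p = 0.6), and -0.14 (without cKO replicate 1) to 1.24 (without control replicate 1) when single libraries were left out. Within same-numbered pairs its log2 ratios were 1.06, 0.22 and 0.52. In CD8 cells *Cenpf* had 20.2, 39.3, 27.4, 37.1 and 33.2 normalized CPM in control and 28.7, 33.2, 34.4, 39.5 and 32.4 in cKO samples. The lowest sample was control replicate 1, and the remaining 9 overlapped. The CD8 log2 fold change was 0.094 (SE 0.16, edgeR adjusted p = 0.979, exact permutation p = 0.548), and -0.089 without control replicate 1 and the library labelled CD8 cKO replicate 4 together, and it ranged over -0.027 (without control replicate 1) to 0.19 (without control replicate 2) with single libraries left out. *Cenpe* had DP and CD8 log2 fold changes of 0.70 and 0.058, and *Cenpa*, the centromeric histone gene, 0.31 and 0.063. In DP cells *Cenpe* ran from -0.14 (without DP cKO replicate 1) to 1.12 (without DP control replicate 1) when single libraries were left out, with the same change of sign as *Cenpf*, and *Cenpa* stayed above 0 (from 0.21 to 0.50).

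*Mki67* had the largest DP log2 fold change of the 40. It had 473, 305 and 199.7 normalized CPM in DP control and 1030.2, 381 and 274 in DP cKO samples. Control replicate 1 was above cKO replicates 2 and 3, and cKO replicate 1 was the highest sample by far. The log2 fold change was 0.78 (SE 0.47, edgeR adjusted p = 0.681, exact permutation p = 0.5), with a 95% interval from -0.28 to 1.85. It was 0.0053 (without cKO replicate 1) to 1.15 (without control replicate 1) when single libraries were left out, while the log2 ratios in the same-numbered pairs were 1.12, 0.32 and 0.45. In CD8 cells *Mki67* had 275, 520.1, 382, 415 and 463 normalized CPM in control and 458, 560.4, 369, 447 and 433 in cKO samples. The groups overlapped, with control replicate 1 lowest. The CD8 log2 fold change was 0.14 (SE 0.15, edgeR adjusted p = 0.979, exact permutation p = 0.429), 0.026 (without control replicate 1) to 0.24 (without control replicate 2) with single libraries left out and 0.034 without control replicate 1 and the library labelled CD8 cKO replicate 4.

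*Top2a* and the condensin genes shape the chromosomes that the Ki-67 protein coats. *Top2a* had 583, 679.7 and 404 normalized CPM in DP control and 886, 629 and 613 in DP cKO samples, with control replicate 3 lowest, cKO replicate 1 highest and overlap between groups. Its CD8 values were 102, 215, 161, 168 and 215 in control and 188, 224, 158, 305 and 230.4 in cKO samples. Lowest was control replicate 1, and highest the library labelled CD8 cKO replicate 4. The log2 fold changes of *Top2a* were 0.35 in DP cells (SE 0.21, edgeR adjusted p = 0.677, exact permutation p = 0.4) and 0.36 in CD8 cells (SE 0.20, edgeR adjusted p = 0.954, exact permutation p = 0.175), the latter 0.079 without these 2 libraries. They were 0.16 (without cKO replicate 1) to 0.52 (without control replicate 2) in DP cells and 0.22 (without the library labelled CD8 cKO replicate 4) to 0.46 (without cKO replicate 3) in CD8 cells with single libraries left out. *Smc4* had 537, 395 and 347 normalized CPM in DP control and 662, 512 and 306 in DP cKO samples. Here cKO replicate 3 was the lowest sample, unlike for *Top2a*, and the groups overlapped. In CD8 cells it had 539, 517, 395, 378 and 464 normalized CPM in control and 533, 508, 519, 352 and 558 in cKO samples. Among cKO samples the library labelled CD8 cKO replicate 4 was low, where it was high for *Cdk1*, *Ccna2* and *Top2a*. The log2 fold changes of *Smc4* were 0.21 in DP cells (SE 0.26, edgeR adjusted p = 0.875, exact permutation p = 0.8) and 0.11 in CD8 cells (SE 0.13, edgeR adjusted p = 0.979, exact permutation p = 0.524). Single libraries left out gave -0.060 (without cKO replicate 1) to 0.47 (without cKO replicate 3) in DP cells and 0.048 (without control replicate 4) to 0.21 (without the library labelled CD8 cKO replicate 4) in CD8 cells, and *Smc4* rose to 0.27 in CD8 cells without control replicate 1 and the library labelled CD8 cKO replicate 4. The condensin genes *Ncapg* and *Ncaph* had DP log2 fold changes of 0.33 and 0.33, and CD8 values of 0.22 and 0.29.

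In cytokinesis, *Anln* encodes anillin, which anchors the contractile ring. It had 42.4, 34.1 and 19.4 normalized CPM in DP control and 61.005, 37.1 and 32.2 in DP cKO samples. The groups overlapped, with cKO replicate 1 highest and control replicate 3 lowest. In CD8 cells *Anln* had 5.66, 15.96, 15.3, 12.03 and 18.1 normalized CPM in control and 13.1, 19.6, 16.2, 18.1 and 20.6 in cKO samples. Control replicate 1 was far below the other 9 samples, which overlapped. The log2 fold changes were 0.44 in DP cells (SE 0.31, edgeR adjusted p = 0.739, exact permutation p = 0.5) and 0.37 in CD8 cells (SE 0.24, edgeR adjusted p = 0.979, exact permutation p = 0.159), the latter 0.17 without CD8 control replicate 1 and the library labelled CD8 cKO replicate 4. When single libraries were left out, *Anln* had 0.11 (without cKO replicate 1) to 0.70 (without control replicate 1) in DP cells and 0.18 (without control replicate 1) to 0.51 (without control replicate 5) in CD8 cells. Its log2 ratios were 0.52, 0.12 and 0.73 in the DP pairs and 1.20, 0.30, 0.078, 0.58 and 0.18 in the CD8 pairs. *Ect2*, the exchange factor that activates RhoA at the furrow, and *Racgap1*, its midzone partner, had DP log2 fold changes of 0.31 and 0.43 and CD8 values of 0.23 and 0.16. The spindle genes *Tpx2*, *Nusap1* and *Prc1*, whose proteins activate Aurora A, bundle microtubules near chromatin and cross-link midzone microtubules, had DP log2 fold changes of 0.36, 0.24 and 0.38 and CD8 values of 0.18, 0.12 and 0.20.

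The labels give cKO and control samples the same replicate numbers, and samples of the same number were set side by side as pairs. Over the 40 members the median log2 ratio of cKO to control was 0.69, -0.19 and 0.68 in DP pairs 1, 2 and 3, with 40, 8 and 39 members above 0, where 51.6, 48.6 and 50.8% of all genes were. Pairs 1 and 3 thus had nearly all members above 0, and pair 2 most of them below. Ratios ran from 0.30 (*Smc4*) to 1.12 (*Mki67*) in pair 1, from -0.49 (*Mad2l1*) to 0.38 (*Smc4*) in pair 2, and from -0.18 (*Smc4*) to 1.18 (*Ube2c*) in pair 3. *Smc4* was lowest in pairs 1 and 3 and highest in pair 2. The 8 members above 0 in pair 2 were *Cdc25c*, *Ttk*, *Kif15*, *Cenpe*, *Cenpf*, *Smc4*, *Mki67* and *Anln*, and all of these but *Smc4* were above 0 in every DP pair. The share of all genes above 0 in every DP pair is not given, so these members cannot be set against it. The log2 ratios of *Kif15* were 0.82, 0.19 and 0.63 and those of *Cenpe* 1.01, 0.17 and 0.46. Chosen after seeing the data, fits without both DP samples of a number gave member medians of 0.21 without number 1, 0.73 without number 2 and 0.25 without number 3, and edgeR called 0 members in each, with 0, 20 and 2 higher at an unadjusted p under 0.05, against 4.73%, 4.92% and 2.2% of all genes, and 0 lower. DESeq2 was not run without these samples.

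In the CD8 pairs the member medians were 0.60, 0.022, -0.039, 0.50 and -0.088 in pairs 1 to 5, with 39, 21, 16, 34 and 14 of 40 members above 0. Over all genes 49.6, 50, 50.1, 49.3 and 49.8% were above 0 in these pairs. Pairs 1 and 4 were high, and they hold CD8 control replicate 1 and the library labelled CD8 cKO replicate 4, the libraries that stood apart. The other 3 medians lay within -0.088 to 0.022. *Anln* and *Kif15* were the members above 0 in all 5 CD8 pairs as in all 3 DP pairs, and were named after these ratios were seen. Here too the share of all genes above 0 in every pair is not given, so the naming of *Anln* and *Kif15* is a description only. The log2 ratios of *Kif15* in the CD8 pairs were 0.52, 0.042, 0.025, 0.49 and 0.18. Without both CD8 samples numbered 1, an alternative chosen after seeing the data, the median was 0.086 with 30 members above 0.

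**Figure D4:**
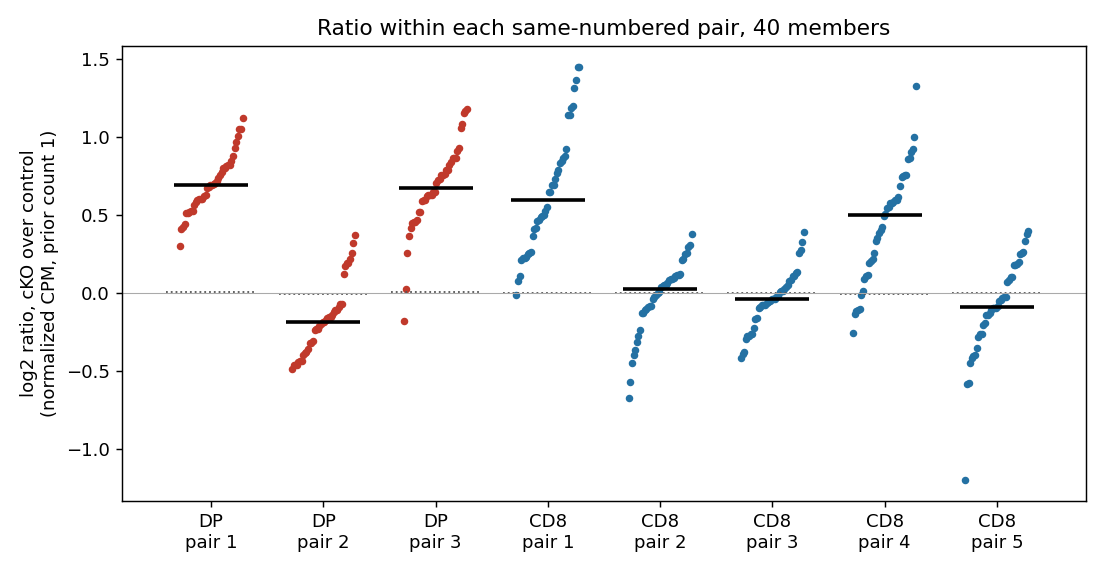
Log2 ratio of cKO to control in each same-numbered pair for the 40 members (points), in 3 DP and 5 CD8 pairs, with the members' median as a bar and the median of all genes as a dotted line. The member medians were 0.69, -0.19 and 0.68 in the DP pairs and 0.60, 0.022, -0.039, 0.50 and -0.088 in the CD8 pairs.

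The members varied among replicates of 1 group more than most genes did. The SD over the DP samples of each gene's deviation from its group mean, on the log2 scale, had a median of 0.38 over the members and 0.21 over all genes tested. All 40 members were above the median of all genes, from 0.23 for *Cenpa* to 0.96 for *Cenpf*. In CD8 samples the medians were 0.37 and 0.23, 35 of 40 members were above that of all genes, and the range ran from 0.13 for *Mad2l1* to 0.76 for *Cdc25c*. The members' mean deviation was 0.099, 0.31 and -0.41 in the DP control samples and 0.40, -0.26 and -0.14 in the DP cKO samples. All 40 members were above their group mean in DP cKO replicate 1 and none in DP control replicate 3. For 25 S phase and replication genes the mean deviations were -0.076, 0.30 and -0.23 in DP control and 0.13, -0.18 and 0.052 in DP cKO samples. The S phase genes had the opposite sign to the members in control replicate 1 and cKO replicate 3. As a description, the mean deviations of members and S phase genes, which come from the same libraries, correlated at 0.841 over the 6 DP samples and 0.954 over the 10 CD8 samples, or 0.825 over the 8 without the 2 libraries that stood apart, an alternative chosen after seeing the data. In CD8 samples the members' mean deviation was -0.63, 0.26, 0.0099, 0.099 and 0.26 in control and -0.16, 0.043, -0.22, 0.35 and -0.014 in cKO samples. Control replicate 1 had the lowest value and the library labelled CD8 cKO replicate 4 the highest.

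In DP samples the deviations also went with transcript length. Across the 40 members, which are not independent replicates and share each library, the correlation of a sample's deviations with log2 exonic length was 0.751, -0.674 and -0.576 in the control samples and 0.758, 0.206 and -0.812 in the cKO samples. Over all 11748 genes tested the same correlations were 0.182, -0.133 and -0.103 in control and 0.209, -0.0126 and -0.256 in cKO samples. Both replicates numbered 1 had high values for long members, and both replicates numbered 3 had low ones. The 6 members of at least 5000 exonic bases, *Cenpf* (11122 bases), *Mki67* (10075), *Cenpe* (7813), *Smc2* (5531), *Anln* (5421) and *Top2a* (5217), had a median deviation of 0.55, 0.082 and -0.63 in control and 0.91, -0.26 and -0.64 in cKO samples. The 8 members under 2000 bases had -0.14, 0.45 and -0.35 in control and 0.16, -0.29 and 0.15 in cKO samples. *Mki67* and *Cenpf*, the largest log2 fold changes in DP cells and the calls of DESeq2 with the replicate block, are the longest members, and the part of length or RNA quality in them was not tested. In CD8 samples the correlations over the members were -0.125, 0.377, 0.145, -0.225 and -0.127 in control and 0.113, 0.0983, 0.0798, -0.462 and 0.438 in cKO samples, and over all genes tested 0.0569, 0.164, 0.0152, -0.144 and -0.179 in control and -0.171, -0.0129, -0.0511, -0.0765 and 0.302 in cKO samples. The all-gene value of CD8 cKO replicate 5 was the largest of the 16 samples. In the library labelled CD8 cKO replicate 4, which had the lowest correlation over members among CD8 samples, the 8 short members had a median deviation of 0.57 and the 6 long ones 0.078, and in CD8 cKO replicate 5 they had -0.20 and -0.011. The part of length or RNA quality in the CD8 values was not tested either. The plot of deviation against length shows the 6 DP samples.

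**Figure D5:**
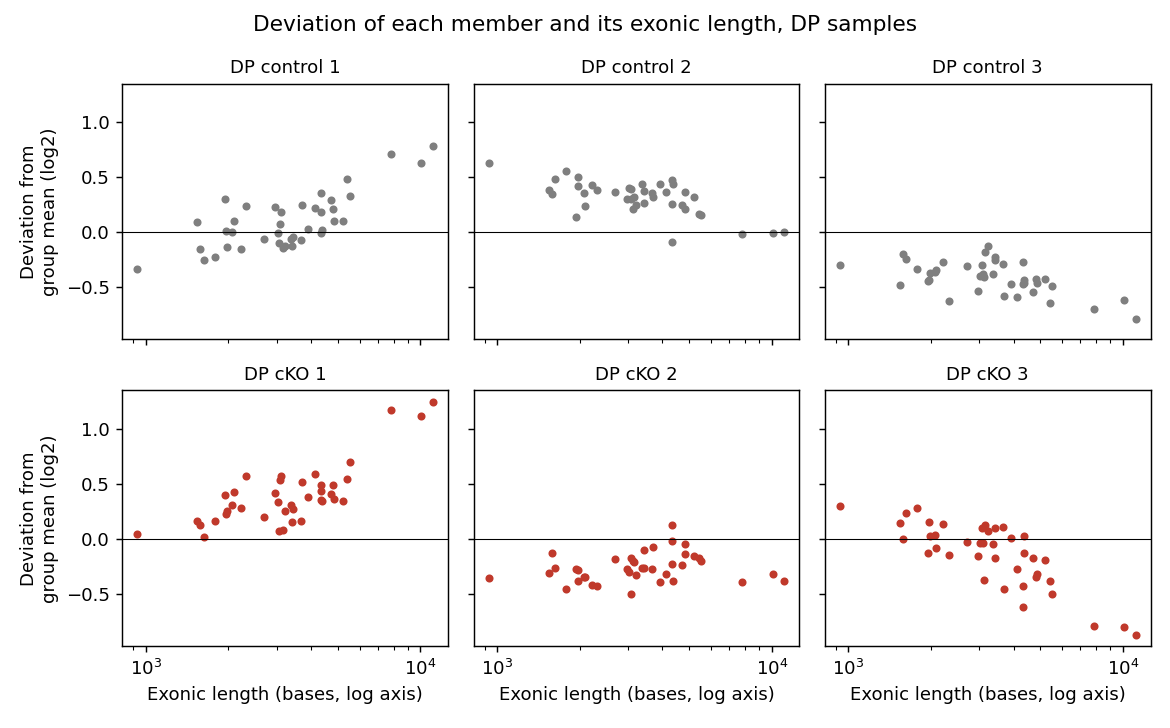
Deviation of each of the 40 members from its group mean (log2) against exonic length in the 6 DP samples. Across members the correlation was 0.751 in control replicate 1, 0.758 in cKO replicate 1 and -0.812 in cKO replicate 3.

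Other genes of the same machinery were read from lists beside the members. Over all genes edgeR placed 5.07% higher and 4.11% lower at an unadjusted p under 0.05 in DP cells, and 3.06% and 2.54% in CD8 cells, and DESeq2 4.95% and 4.32% in DP and 3.24% and 2.63% in CD8 cells. DESeq2 called 0.783% of all genes higher and 0.579% lower in DP cells, and 0.365% and 0.107% in CD8 cells. By edgeR 22.3% were called lower and 22% higher in CD8 than in DP control samples, and 49.8% were above 0 by genotype in DP and 48.4% in CD8 cells. Of 57 other mitotic genes, 56 were in the tables, and in DP cells edgeR called 0, with 12 higher at an unadjusted p under 0.05, and DESeq2 called 0. Their median log2 fold change was 0.34 with 54 of 56 above 0, the largest being 0.88 for *Cenpm*, 0.65 for *Gtse1*, 0.61 for *Cenpn* and 0.58 for *Spc24* (0.44 to 0.89 when single libraries were left out). In CD8 cells edgeR called 0 (2 higher and 1 lower at an unadjusted p under 0.05; DESeq2 called 0), and the median was 0.15 with 41 above 0. Between control samples 40 were called lower in CD8 cells and 1 higher, *Kif20b* (0.60), which ran from 0.37 (without DP control replicate 3) to 0.93 (without DP control replicate 1) and was called in 5 of the 8 fits without single libraries. The 16 subunits of the anaphase-promoting complex, whose activator and enzyme are members, had a DP median of 0.070 with 11 above 0, 0 called by edgeR or DESeq2 and 1 at an unadjusted p under 0.05 by each. In CD8 cells 0 were called and 0 were at an unadjusted p under 0.05 by either tool (median -0.046), and between control samples 7 were called lower in CD8 cells and 1 higher. The 25 S phase and replication genes had a DP median of 0.32 with 25 above 0, 0 called by edgeR or DESeq2 and 6 at an unadjusted p under 0.05 by edgeR. In DP pairs their medians were 0.54, -0.15 and 0.61, with 25, 4 and 25 of 25 above 0. Their CD8 median was 0.10 with 20 above 0, 0 called and 0 at an unadjusted p under 0.05 by either tool, and 17 were called lower in CD8 than in DP control samples. The DP medians fell without single libraries too, to 0.15 for the other mitotic genes and 0.25 for the S phase genes without cKO replicate 1, and to 0.18 and 0.22 without control replicate 3. Without the 2 CD8 libraries that stood apart, the CD8 medians were -0.051 for the other mitotic genes, -0.067 for the complex subunits and -0.065 for the S phase genes.

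Regulators of mitotic transcription and entry formed a list of 22. In DP cells edgeR called 0 of them, with 7 higher at an unadjusted p under 0.05, and the median log2 fold change was 0.085 with 17 above 0. DESeq2 called 2 higher, *Mybl2*, an activator of G2 and mitotic genes, and *Cdkn1a*, the gene of the kinase inhibitor p21. By edgeR *Mybl2* had a log2 fold change of 0.70 (adjusted p = 0.22), *Cdkn1a* 1.42 (adjusted p = 0.245), *Foxm1*, another activator of mitotic genes, 0.57 (adjusted p = 0.328) and *E2f2* 0.50 (adjusted p = 0.18). In CD8 cells edgeR called 0 (4 higher at an unadjusted p under 0.05), DESeq2 called *Cdkn1a* higher, and the median was 0.090 with 16 above 0. Between control samples 7 were called lower in CD8 cells and 2 higher. The methods of the study name 22 proliferation-related genes, of which 6 are members (*Aurka*, *Bub1*, *Ccnb1*, *Mki67*, *Plk1* and *Top2a*). In DP cells edgeR called 0 of the 22 (3 higher at an unadjusted p under 0.05), DESeq2 called 1, *Mybl2*, and the median was 0.31 with 20 above 0. In CD8 cells 0 were called by edgeR or DESeq2 (1 at an unadjusted p under 0.05 by each), with a median of 0.099 and 16 above 0. The DP median of these 22 was 0.16 without cKO replicate 1 and 0.17 without control replicate 3. In CD8 cells without the 2 libraries that stood apart the medians were 0.055 for the regulators and -0.081 for the genes of the study.

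Markers of other thymic cells were read beside the DP values of the members. Cells were sorted with settings for purity, on CD4 and CD8 for DP cells and on the T cell receptor beta chain and CD8 for CD8 cells, gates that would remove B cells, macrophages and epithelial, erythroid and gamma-delta T cells. The 5 markers of the pre-TCR, DN3 and immature single-positive stages, all in the tables, summed to 276, 237 and 187 TPM in DP control and 396, 269.7 and 327 TPM in DP cKO samples, led by *Notch1*. The groups overlapped, and *Notch3* was called higher (log2 fold change 1.01, edgeR adjusted p = 0.0415, against 0.0851% of all genes), though in 0 of the 6 fits without single DP libraries (0.92 to 1.10). The list did not move as one. *Il2ra* was lower, at 8.11 to 14.96 TPM in DP control and 5.77 to 6.46 TPM in DP cKO samples. Mean TPM in DP control and cKO samples was 115 and 163 for *Notch1*, 63.7 and 76.8 for *Ptcra*, and 1.63 and 1.62 for *Hes1*. The 6 macrophage and dendritic cell markers summed to 33.1, 94.3 and 36.7 TPM in DP control and 17.4, 20.7 and 20.2 TPM in DP cKO samples, most of it *Lyz2*, with none at 0 in either group. The groups did not overlap, and edgeR called 0 of the 6 with 4 lower at an unadjusted p under 0.05 (4.11% of all genes), while DESeq2 called *Lyz2* lower (0.579% of all genes). By edgeR the log2 fold change of *Lyz2* was -1.65, and -0.90 without DP control replicate 2. The same shares apply to the lower DP markers that follow. The 8 mature single-positive markers summed to 1127, 962 and 837 TPM in DP cKO samples, led by *Ccr9*, with 0 called by edgeR, 3 lower at an unadjusted p under 0.05, and *Ccr7* called lower by DESeq2. The CD4 lineage markers *Zbtb7b* and *Cd40lg* summed to 23.6, 17.7 and 13.5 TPM in DP control and 9.61, 7.36 and 7.13 TPM in DP cKO samples, which did not overlap. For these, edgeR called 0 with both lower at an unadjusted p under 0.05, and DESeq2 called *Zbtb7b* lower. The part of any of these markers in the members' values was not tested.

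The 7 DP markers summed to 12881, 10069 and 11020.4 TPM in DP control and 11195, 9134 and 9162 TPM in DP cKO samples, led by *Rag1*, with 0 called by edgeR or DESeq2 and 1 lower at an unadjusted p under 0.05 by each (4.11% of all genes by edgeR and 4.32% by DESeq2). The 5 B cell markers, led by *Cd79b*, summed to 54.7, 61.5 and 41.8 TPM in DP control and 40.01, 44.7 and 43.3 TPM in DP cKO samples. These B cell sums overlapped between groups, and 0 of the 4 tested were called by either tool, with 2 lower at an unadjusted p under 0.05 by each, beside the same shares. The 4 thymic epithelial markers, led by *Epcam*, summed to 7.81, 8.20 and 11.9 TPM in DP control and 6.65, 4.79 and 6.03 TPM in DP cKO samples, with *Foxn1* at 0 in both groups, and the only one tested was not called. Of 3 gamma-delta T cell markers, *Sox13* alone was in the tables, at 1.45, 0.642 and 1.49 TPM in DP control and 1.12, 1.41 and 1.44 TPM in DP cKO samples, and it was not called by either tool there. Of 5 erythroid markers, *Hbb-bs*, *Hba-a1* and *Hba-a2* were at 0 in every group, the sums were 0.641, 0.235 and 0.270 TPM in DP control and 0.219, 0.194 and 0.542 TPM in DP cKO samples, and none was tested.

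In CD8 samples the pre-TCR, DN3 and immature single-positive markers summed to 239, 292, 255, 248 and 238 TPM in control and 309.6, 327, 289, 296 and 304 TPM in cKO samples, led by *Notch1*. The DP markers summed to 3588, 3505, 3561, 3299 and 3358 TPM in CD8 control and 2984, 3059, 3057, 3643 and 3132 TPM in CD8 cKO samples, led by *Cd8b1*. The library labelled CD8 cKO replicate 4 had the highest of these DP marker sums, beside its high member levels. The B cell markers were highest in CD8 control replicate 1, with sums of 65.5, 28.3, 27.1, 20.4 and 28.4 TPM in control and 51.3, 41.6, 22.9, 33.5 and 37.3 TPM in cKO samples. Macrophage and dendritic cell markers summed to 9.92, 7.05, 1.87, 1.92 and 3.03 TPM in control and 11.2, 12.4, 2.31, 3.38 and 6.02 TPM in cKO samples, and were highest among controls in replicate 1. The part of these markers in the CD8 values of the members was not tested. *Sox13* had 6.30, 4.18, 3.46, 1.79 and 2.13 TPM in CD8 control and 13.4, 7.06, 7.196, 7.59 and 8.69 TPM in CD8 cKO samples, and DESeq2 called it higher (0.365% of all genes) while edgeR called it only in 1 of the 10 fits without single CD8 libraries. CD4 lineage markers summed to 26.7, 21.8, 9.96, 6.61 and 10.1 TPM in CD8 control and 29.1, 17.6, 9.31, 3.79 and 4.95 TPM in CD8 cKO samples, mature markers to 3871, 3936, 6454, 6443 and 5269.6 TPM in CD8 cKO samples, and epithelial markers to 5.21, 2.67, 3.09, 2.38 and 4.34 TPM in control and 5.04, 3.83, 1.56, 4.16 and 1.21 TPM in cKO samples. Erythroid markers were at 0 in CD8 control samples and summed to 0.139, 0.153, 0, 0 and 0 TPM in CD8 cKO samples.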

How the data were processed

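RNA of DP thymocytes (3 control and 3 cKO samples) and CD8 thymocytes (5 and 5) was measured. Per the labels, the authors trimmed reads with fastp 0.13.1, aligned them to mm10 with HISAT2 2.1.0 and counted them per gene with featureCounts 1.6.1; the deposited tables hold raw counts per gene and sample and exonic length in bases. Total counts per sample were 14583336 to 25981683 (DP) and 8514135 to 13530783 (CD8). No molecular identifiers are described, so counts are not numbers of independent molecules; standard errors and intervals come from fits over samples and include the spread between them.

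Counts were fitted over all genes with edgeR 4.0.16 in R 4.3.3 (TMM, filterByExpr, quasi-likelihood F test, 2-sided, Benjamini-Hochberg), genotype within cell type, cell type within genotype, and their interaction over genes of both tables. TPM used the exonic lengths of the DP table. Log2 ratios used a prior count of 1. Single genes had 2-sided exact permutation tests. The code was tested on simulated data. Alternatives were DESeq2 1.42.0, a replicate block, other normalizations and count filters, all 4 groups in 1 fit, and leaving out libraries.

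Deviations from group means over all genes correlated within same-numbered DP pairs at 0.63, 0.13 and 0.29, all over 0.1, though 2 of 6 samples correlated best with their own number. Members and lists were chosen with earlier results of these data known: the members, other mitotic genes, anaphase-promoting complex subunits, S phase genes, regulators, the study's proliferation-related genes, and markers of DP, pre-TCR, mature, CD4 lineage, B, macrophage and dendritic, epithelial, gamma-delta and erythroid cells. Values in every sample were given for *Tox4*, for *Cdk1*, *Ccna2*, *Ccnb1*, *Ccnb2* and *Mki67*, for members called by genotype or in the interaction by edgeR with or without the block or by DESeq2, for the 3 largest rises and falls by genotype in each cell type, and for the 2 highest and 2 lowest mean TPM in control samples of each cell type. Other members were given by range and counts, and other lists by counts, median and at most 4 examples.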

Additional observations from a re-analysis of the deposited data

Results flagged for a closer look

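In the 28 groups of 5 CD8 samples examined (normalized CPM of the genes given in every sample), 2 had a sample whose gap to its nearest neighbour, as a share of the range of the group, passed Dixon's 95% limit, where about 1 in 20 groups, here 1.4, would by chance. *Smc4* in the library labelled CD8 cKO replicate 4 had 352 normalized CPM, the nearest CD8 cKO sample 508, and the gap was a share of 0.758. *Kif23* in CD8 cKO replicate 2 had 55.8 normalized CPM, the nearest CD8 cKO sample 46.3, and the gap was a share of 0.719. Groups of 3 DP samples were not examined.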

How the results depend on the processing

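Counts of members called by genotype in either cell type, or for the difference between cell types, were 0 under every alternative by edgeR and DESeq2 except DESeq2 with the replicate block in DP cells (2). Counts for CD8 against DP stayed within 1.5 times the values given. Member medians moved by less than 1 SD over samples of the members' mean deviation (0.36 in DP and 0.30 in CD8 cells), which is about as large as the DP median and larger than the CD8 median. This SD is the spread of single samples, and leaving out 1 sample moves a group mean by only part of its deviation. Staying under it therefore does not show that the medians are stable. The medians ran from 0.17 to 0.73 by genotype in DP cells (0.39 as given), from -0.049 to 0.23 in CD8 cells (0.15), with a change of sign, and from -0.45 to -0.0034 for the difference between cell types (-0.22). Over all genes, calls by genotype in DP cells (17) numbered 160 by DESeq2, 218 by DESeq2 with the block, 131 with the block in edgeR, 42 with all 4 groups in 1 fit, 74 with no filter, and 0 to 8 when single libraries were left out. Without both samples numbered 1, 2 or 3, alternatives chosen after seeing the data, they numbered 72, 0 and 0. In CD8 cells (11) they numbered 53 by DESeq2, 63 by DESeq2 with the block, 31 with the block in edgeR, 36 without control replicate 1 and the library labelled CD8 cKO replicate 4, 5 without both samples numbered 1 (chosen after seeing the data) and 4 to 20 when single libraries were left out. For the difference between cell types (13) they numbered 37 by DESeq2, 33 with the block, 3 with upper-quartile normalization, 7 without both of those CD8 libraries and 0 to 11 when single libraries were left out. With the block in edgeR the smallest adjusted p over members was 0.0716 in DP and 0.368 in CD8 cells. In CD8 cells the block placed 5 members higher at an unadjusted p under 0.05 (4.65% of all genes). Same-numbered CD8 pairs correlated at 0.359, 0.285, 0.309, 0.302 and 0.0889, and samples of other numbers at -0.0697 on average; 5 of 10 correlated best with their own number. Since the last pair was under the limit of 0.1, no pairing was assumed for these samples, though the other pairs were over it. In both genotypes the mature markers summed lower in CD8 numbers 1 and 2 than in the other numbers. When single libraries were left out, log2 fold changes crossed 0 for 7 of 40 members in DP cells, 18 in CD8 cells, and 1 and 3 for CD8 against DP in control and cKO samples. Among genes given sample by sample these ranged, in DP cells, over -0.14 to 1.24 (*Cenpf*), -0.060 to 0.47 (*Smc4*) and -0.13 to 0.27 (*Mad2l1*), and in CD8 cells over -0.058 to 0.24 (*Ccnb2*), -0.11 to 0.22 (*Ttk*), -0.027 to 0.19 (*Cenpf*), -0.43 to 0.28 (*Cdc25c*) and -0.11 to 0.025 (*Kif23*). For CD8 against DP they ranged over -0.67 to 0.11 (*Cenpf*, control), -0.56 to 0.57 (*Mki67*, cKO) and -0.17 to 0.37 (*Smc4*, cKO). *Mad2l1* was -0.084 without both DP samples numbered 1 and *Ttk* -0.12 without both CD8 samples numbered 1. Without CD8 control replicate 1 and the library labelled CD8 cKO replicate 4, *Ccnb2* was -0.19, *Ttk* -0.10 and *Cenpf* -0.089, each opposite in sign to the value with all libraries, and *Cdc25c* -0.64. Of the other values of these genes under alternatives, 845 kept direction and side of the threshold, 11 passed it only there and 3 only in the fit reported. The cause was not tested. Depth limited *Cdc25c* most, with 8 counts in CD8 control replicate 1.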
